A study of Caenorhabditis elegans with 12 samples.

Results

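Nuclear hormone receptors are transcription factors that bind DNA through zinc fingers and, in many cases, a small lipophilic ligand through a separate domain. Caenorhabditis elegans carries a very large family of them, most of which arose from an ancestor related to the vertebrate receptor HNF4 and many of which still have no assigned function. Like other worm mRNAs, receptor transcripts can serve as templates for RNA-dependent RNA polymerases, which make short antisense 22G RNAs with a 5′ triphosphate that Argonaute proteins then use for silencing or licensing of the matching gene. The values below are levels of small RNAs that map to receptor genes and not levels of receptor mRNA or protein. The genes considered are those whose name starts with nhr-, 277 of the 42048 genes in the deposited tables. They comprise 267 protein-coding genes, 9 pseudogenes and 1 name without a match in the annotation.

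The strains were meg-3(ax3055) meg-4(ax3052), which lacks a pair of intrinsically disordered proteins of the germline P granules, rde-11(hj37), mutant for a zinc finger protein needed to amplify exogenous RNA interference, and the wild type N2. All of the worms, N2 included, were starvation-synchronized, kept at 20 °C on HT115 bacteria that express double-stranded RNA of 400 nt to pos-1, and taken whole as young mothers. RNA of each strain was either treated with 5′ polyphosphatase, which lets 22G RNAs enter the library, or left untreated. Each of the 6 groups had 2 libraries of 3884534 to 5278777 reads assigned to genes, and levels are given in fpm (reads scaled to the library's assigned total, a CPM unit), where 1 read was worth 0.189 to 0.257 fpm. The question of the series was whether amplification of an exogenous RNA interference signal needs these P granule proteins. No label says that replicates came from separate cultures, so the p-values measure the spread between these libraries, which may be technical. In whole worms, fewer cells with a small RNA and less of it per cell cannot be told apart, and small RNA libraries do not hold the mRNA markers that would check the tissue.

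Small RNAs of meg-4, rde-11 and pos-1 come first, while those of meg-3 are not given here. Treated RNA of meg-3 meg-4 held 0 and 0.379 fpm of small RNAs of meg-4 (listed as C36C9.1), against 72.5 and 71.4 fpm in N2. Small RNAs of the gene rde-11, which do not show whether its allele is mutant, stood at 4352 and 4367 fpm in treated meg-3 meg-4, at 744 and 758 fpm in treated rde-11, and at 636 and 631 fpm in treated N2. Small RNAs of pos-1, the gene that was fed, stood at 2776 and 2120 fpm in treated meg-3 meg-4, at 1312 and 1116 fpm in treated rde-11, and at 8765 and 7819 fpm in treated N2. The pair of treated meg-3 meg-4 libraries differed most between replicates, with a chi-square of 14.5 per gene, against 4.55 in treated rde-11 and 5.05 in treated N2. Titles of the meg-3 meg-4 samples give the strain number JH3475 for replicate 1 and JH3745 for replicate 2, under 1 genotype label.

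Receptor genes gave few small RNAs in most cases and many in a handful. In treated N2 their median level was 0.833 fpm, against 1.96 fpm for all protein-coding genes. Of the 277 genes, 130 reached a mean of 1 fpm in treated N2, 62 reached 5 fpm and 15 reached 50 fpm, while 34 had no read in any of the 12 libraries. For a gene without reads in 1 library, an expected count of up to 3 reads remains possible, which is 0.568 to 0.772 fpm. The family sat mainly on chromosome V, with 169 genes, followed by 34 on IV, 25 on X, 24 on I, 16 on II and 8 on III. On chromosome I, 8 of 24 receptor genes (33.3%) reached 1 fpm in treated N2, whereas 75.3% of the protein-coding genes there did. On V the shares were 43.2% of receptor genes and 40.1% of protein-coding genes. Exons of 66 members overlap another gene, and because it is not given whether reads were counted by strand, reads of such pairs cannot be told apart.

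The 10 most abundant receptor genes held 69.4% of the family's small RNAs in treated N2. nhr-15 on chromosome V alone held 28.1%, followed by nhr-229 on IV with 10.9% and nhr-204 on V with 8.50%. After them came nhr-58, nhr-249, nhr-228, nhr-3, nhr-146, nhr-64 and nhr-66, which held between 4.35% (nhr-58) and 2.03% (nhr-66). Per kilobase of exon the order in treated N2 changed little at the top, with nhr-15 at 448 fpm per kb, nhr-229 at 352 and nhr-249 at 346, the last of these over 488 nt of exon. nhr-204 followed at 156 and nhr-58 at 141 fpm per kb. Between nhr-229 and nhr-249 the per-kilobase levels of the replicate libraries overlapped.

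The summed small RNA level of the family was lower in meg-3 meg-4. In treated RNA the sums were 2563 and 2477 fpm in meg-3 meg-4, with 4003 and 3812 fpm in rde-11, and 4311 and 4197 fpm in N2. Both meg-3 meg-4 libraries lay below all 4 others, and both rde-11 libraries lay below both N2 libraries by a smaller margin. The mean in meg-3 meg-4 was 59.2% of that in N2, and the mean in rde-11 was 91.9% of it, while small RNAs of all protein-coding genes stood at 95.8% of N2 in the double mutant and at 105% in rde-11. As a share of the small RNAs of protein-coding genes, receptor genes made up 0.435% ± 0.042 in meg-3 meg-4, 0.612% ± 0.035 in rde-11 and 0.702% ± 0.037 in N2 (mean ± SD, n = 2). An exact permutation test of 2 libraries against 2 cannot go below p = 0.333, so these sums carry no test. nhr-15 took a large part in this difference: it held 14.1% of the family's small RNAs in treated meg-3 meg-4 and 28.1% in treated N2, and without it the meg-3 meg-4 sum was 70.8% of that in N2.

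**Figure D1:**
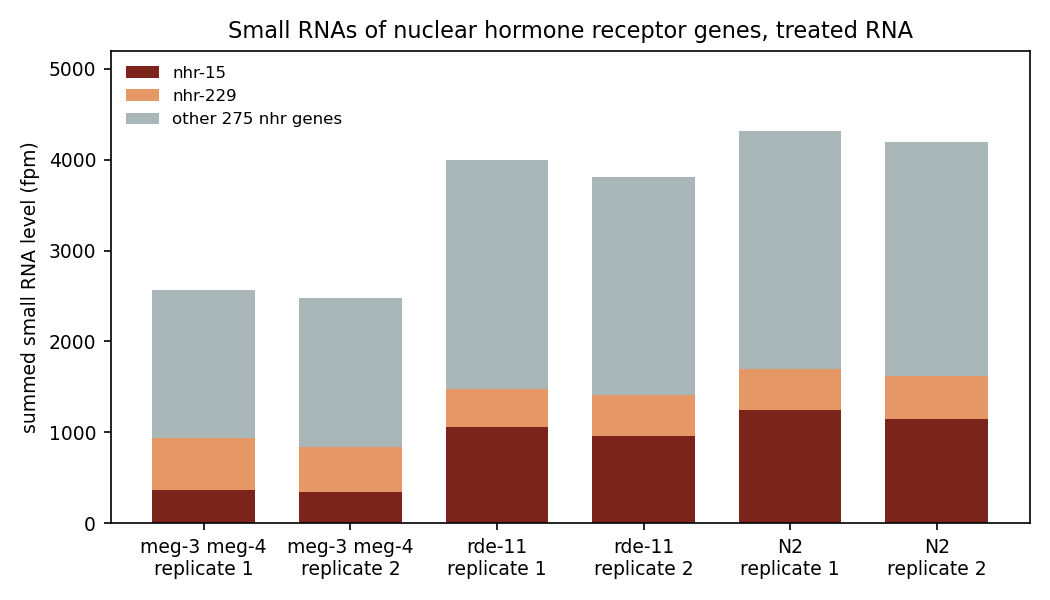
Summed small RNA level of the 277 nhr genes in fpm (vertical axis) in each of the 6 libraries of treated RNA, with nhr-15, nhr-229 and the other 275 genes stacked. The meg-3 meg-4 bars reach 2563 and 2477 fpm, the rde-11 bars 4003 and 3812 fpm and the N2 bars 4311 and 4197 fpm, and the nhr-15 part stands at 369 and 342 fpm in meg-3 meg-4 and at 1250.2 and 1144 fpm in N2.

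Treated RNA of meg-3 meg-4 against N2 asked which receptor genes change when P granule proteins are missing. In this comparison 18 receptor genes fell and 1 rose among the 132 that averaged 1 fpm or more in its 4 libraries (limma on log2(fpm + 1), Benjamini-Hochberg adjusted p under 0.05 over all genes). Of all 16253 genes tested, 6.72% fell and 1.54% rose, together 8.27%, and of protein-coding genes 8.94% fell. Every receptor gene that fell had a mean of at least 5 fpm, where 18 of 56 fell (32.1%), against 11.5% of protein-coding genes of that level. At 50 fpm or more, 8 of 14 receptor genes fell, against 16.3% of protein-coding genes. The median log2 change was -0.30 over the 132 receptor genes and -0.13 over all genes tested, and -0.59 over the 56 receptor genes at 5 fpm or more and -0.15 over protein-coding genes of that level. The remaining members were below the filter and have no test here.

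nhr-64, a receptor of the HNF4-related group linked to fat content, had the largest change. Its small RNAs stood at 6.76 and 6.63 fpm in treated meg-3 meg-4, at 32.6 and 34.4 fpm in treated rde-11, and at 100.5 and 96.2 fpm in treated N2. The 3 strains did not overlap, with meg-3 meg-4 lowest and rde-11 between. The log2 change in meg-3 meg-4 against N2 was -3.69 (SE 0.22, limma adjusted p = 0.000121). Its exons overlap C45E1.5, which averaged 0.295 fpm in treated meg-3 meg-4 and 0.323 fpm in treated N2. nhr-236 on chromosome IV stood at 10.4 and 12.1 fpm in meg-3 meg-4, at 57.4 and 49.1 fpm in rde-11, and at 59.1 and 58.5 fpm in N2. Here meg-3 meg-4 stood apart and the rde-11 libraries lay just below N2, with a log2 change in meg-3 meg-4 against N2 of -2.29 (SE 0.23, limma adjusted p = 0.000913). nhr-48 on X, a relative of the steroid receptor DAF-12, had 22.8 and 19.5 fpm in meg-3 meg-4, with 100.7 and 86.8 fpm in rde-11, and 84.2 and 86.9 fpm in N2. The meg-3 meg-4 libraries were far below the other strains, which overlapped, and the log2 change against N2 was -1.97 (SE 0.22, limma adjusted p = 0.00144).

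nhr-15, the most abundant member, had 369 and 342 fpm in treated meg-3 meg-4, with 1060 and 955 fpm in treated rde-11, and 1250.2 and 1144 fpm in treated N2. Its meg-3 meg-4 libraries lay below every other library, and the log2 change against N2 was -1.75 (SE 0.12, limma adjusted p = 0.000219). nhr-146 on chromosome IV had 40.6 and 34.7 fpm in meg-3 meg-4, with 69.6 and 64.4 fpm in rde-11, and 113 and 119 fpm in N2. As with nhr-64, the 3 strains did not overlap and rde-11 lay between, and the log2 change in meg-3 meg-4 against N2 was -1.60 (SE 0.20, limma adjusted p = 0.00276). nhr-64, nhr-236, nhr-48, nhr-15 and nhr-146 passed the test under each of the 13 alternatives tried.

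nhr-28, nhr-190, nhr-40, nhr-70, nhr-122, nhr-81 and nhr-228 fell by between 1.67 (nhr-28) and 1.16 (nhr-228) on the log2 scale. NHR-40 is known for roles in embryonic and early larval development. nhr-40 on chromosome X had 15.9 and 20.5 fpm in meg-3 meg-4, with 50.1 and 53.0 fpm in rde-11, and 47.1 and 49.2 fpm in N2, so that meg-3 meg-4 was low and the other strains were close together. nhr-228 on V had 60.03 and 64.4 fpm in meg-3 meg-4, with 135 and 113 fpm in rde-11, and 148.6 and 133 fpm in N2. Among the 10 most abundant genes of treated N2, nhr-3 fell by 1.15, nhr-58 by 0.83 and nhr-204 by 0.72 on the log2 scale. nhr-204, the third most abundant, had 228.7 and 211 fpm in meg-3 meg-4, with 295 and 268 fpm in rde-11, and 365 and 358 fpm in N2 (limma adjusted p = 0.0244 for meg-3 meg-4 against N2). nhr-95, nhr-65 and nhr-149, named after their values were seen, complete the 18. Of the genes in this paragraph, nhr-65 lost its call in 6 of 13 alternatives, nhr-149 in 5, and nhr-204 and nhr-58 in 4 each. The others that fell lost it in between 1 (nhr-28) and 3 (such as nhr-190).

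**Figure D2:**
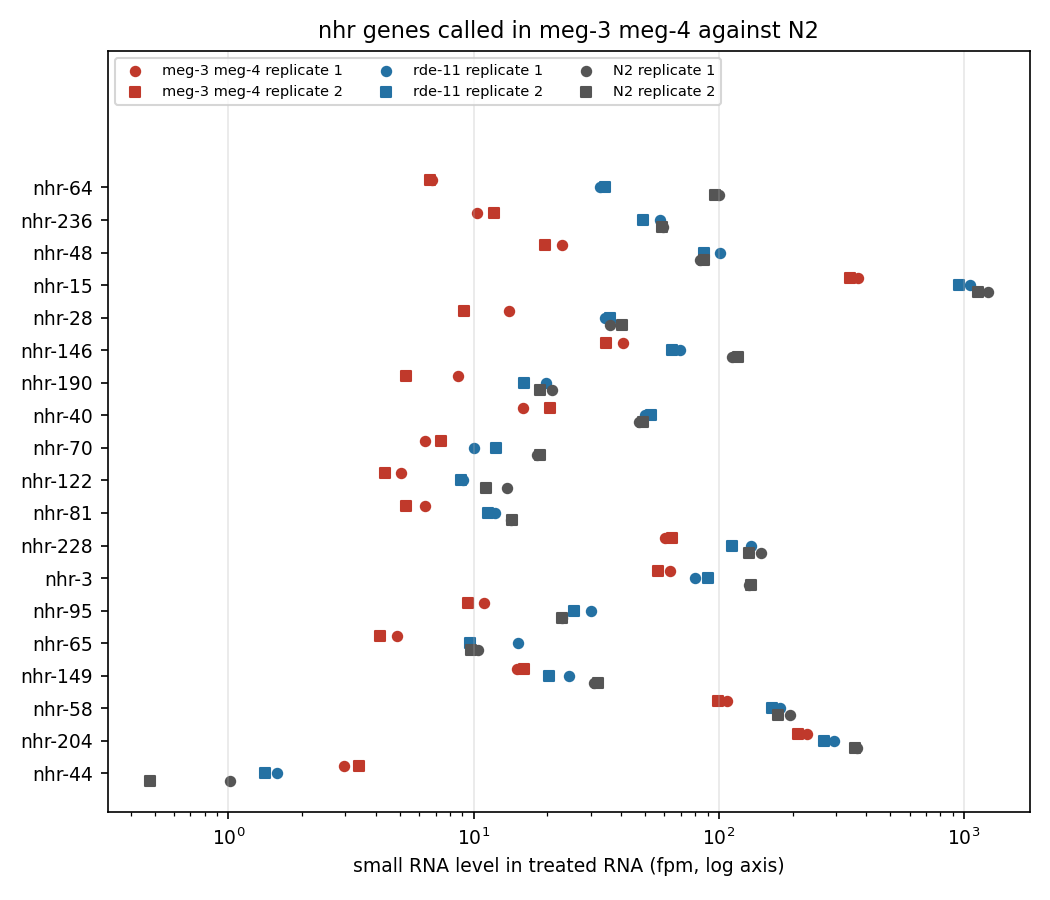
Small RNA level in treated RNA (fpm, log axis) of the 19 nhr genes called in meg-3 meg-4 against N2, with 1 row per gene and 1 point per library of meg-3 meg-4, rde-11 and N2. The meg-3 meg-4 points lie left of the N2 points in 18 rows and right of them in the row of nhr-44, and nhr-64 has the widest gap, with 6.76 and 6.63 fpm in meg-3 meg-4 against 100.5 and 96.2 fpm in N2.

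Abundant receptor genes did not all follow. nhr-229 had 565 and 499.7 fpm in treated meg-3 meg-4, with 422 and 451 fpm in rde-11, and 446 and 480 fpm in N2, a log2 change in meg-3 meg-4 against N2 of 0.20 (SE 0.13, limma adjusted p = 0.52). nhr-249 had 145 and 132 fpm in meg-3 meg-4, against 165 and 173 fpm in N2, a log2 change of -0.29 (SE 0.17, limma adjusted p = 0.454). nhr-84 had 73.6 and 66.9 fpm in meg-3 meg-4, against 82.3 and 83.8 fpm in N2, a log2 change of -0.24 (SE 0.19, limma adjusted p = 0.612). The gene that rose, nhr-44 on V, was named after its values were seen. It had 2.96 and 3.41 fpm in meg-3 meg-4, against 1.02 and 0.477 fpm in N2 (log2 change 1.27, SE 0.31, limma adjusted p = 0.0475), and it lost the call in 6 of the 11 alternatives that gave it a value. Its exons overlap ttc-17, which averaged 23.6 fpm in treated meg-3 meg-4, against 36.1 fpm in treated N2.

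The receptors with known roles mostly showed no call in this comparison. Of 12 receptors conserved beyond nematodes, 10 were tested and nhr-48 alone fell, with a median log2 change of -0.48. nhr-23, the relative of vertebrate ROR that drives molting, had 50.7 and 54.8 fpm in meg-3 meg-4, against 70.1 and 78.05 fpm in N2, and its log2 change of -0.48 did not pass (limma adjusted p = 0.251). nhr-49, an HNF4-related regulator of fatty acid metabolism, had 22.8 and 31.3 fpm in meg-3 meg-4, against 43.2 and 43.9 fpm in N2 (log2 change -0.69, limma adjusted p = 0.166). nhr-8, which acts in sterol homeostasis and resistance to toxins, had 41.4 and 32.0 fpm in meg-3 meg-4, against 38.7 and 33.7 fpm in N2, and the groups overlapped. None of 8 tested lipid, sterol and nutrient receptors was called (median log2 change -0.09). The same held for 6 receptors of development and molting (median -0.34) and for 4 stress and xenobiotic receptors (median 0.25). These lists share members, such as nhr-49 and nhr-8, and the lack of a call does not show that a gene stayed level. Over all genes tested the median was -0.13.

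Genes that work with the receptors were looked at beside them. In treated meg-3 meg-4 against N2, 0 of 4 coregulators were called, with a median log2 change of 0.20. They were the Mediator subunit gene mdt-15, the acetyltransferase gene cbp-1, the DAF-12 corepressor gene din-1 and the NCoR-related gene gei-8. Of the receptors with other names, daf-12 and 1 more of 5 were tested and did not pass, and of 4 genes of dafachronic acid synthesis 1 was tested and did not pass. Among target genes of NHR-49 and NHR-10, acs-2, an acyl-CoA synthetase gene, had 53.5 and 53.2 fpm in meg-3 meg-4, against 97.4 and 107 fpm in N2 (log2 change -0.93, limma adjusted p = 0.0276). The other tested target, the acyl-CoA dehydrogenase gene acdh-1, had 61.3 and 46.2 fpm in meg-3 meg-4, against 47.1 and 33.4 fpm in N2, with overlapping groups.

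The changes were also set against chromosome position. On X, 4 of 13 tested receptor genes fell in meg-3 meg-4 and 20.9% of the protein-coding genes there did, while on V 9 of 75 receptor genes fell and 8.19% of protein-coding genes did. The median log2 change of protein-coding genes was -0.45 on X and -0.16 on V. The family has 92 pairs of neighbouring receptor genes, 73 of them on V. In 22 pairs both genes were tested, in 0 of these both fell, and in 4 of them 1 gene fell. In those 4 the other gene averaged between 1.07 (nhr-92) and 8.10 fpm (nhr-145) in treated N2. Its log2 change was 0.08 for nhr-92, -0.22 for nhr-132, -0.80 for nhr-87 and -0.95 for nhr-145. Since no receptor gene under 5 fpm fell, joint calls were hardly possible and do not show whether neighbours change together. In the pair of nhr-146 and nhr-87, nhr-146 averaged 37.6 fpm in meg-3 meg-4, against 116 fpm in N2. Its neighbour nhr-87, which did not pass, averaged 2.58 fpm in meg-3 meg-4, against 5.24 fpm in N2.

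The counts in meg-3 meg-4 against N2 depended on the libraries and the tool. Without N2 replicate 1 the number of receptor genes called was 6 (with 4.63% of all genes called) and without N2 replicate 2 it was 7 (with 4.56% of all genes called), whereas it was 30 without meg-3 meg-4 replicate 1 (with 17% of all genes called). edgeR on recovered reads called 14 lower and 1 higher of 101, where it called 6.67% of all genes lower and 2.31% higher. The authors' deposited table lists 9 lower and 0 higher of 88 receptor genes with an adjusted p-value. The share over all of its genes was not worked out, so this count has no background beside it.

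In treated rde-11 against N2, receptor genes were called in both directions, each at a share below that of all genes (4.72% rose and 3.15% fell). Of 127 tested, 6 rose and 4 fell, where 6.34% of all 16491 genes tested rose and 4.48% fell, together 10.8%. The median log2 change was -0.08 over these receptor genes and 0.11 over all genes tested. Over protein-coding genes it was 0.13, and 9.1% of them rose and 5.71% fell. At 5 fpm or more, 6.56% of 61 receptor genes rose and 6.56% fell, against 12.4% and 6.43% of protein-coding genes (medians -0.06 and 0.21). At 50 fpm or more, 2 of 17 receptor genes rose and 3 fell, against 22.3% and 8.5% of protein-coding genes (medians -0.11 and 0.29). The genes that fell were nhr-64, nhr-146, nhr-101 and nhr-3. nhr-64, at 32.6 and 34.4 fpm in rde-11 and 100.5 and 96.2 fpm in N2, changed by -1.52 (SE 0.15, limma adjusted p = 4.01e-05) and passed under all 13 alternatives. nhr-146, at 69.6 and 64.4 fpm in rde-11 and 113 and 119 fpm in N2, changed by -0.78 on the log2 scale (SE 0.14, limma adjusted p = 0.00434). nhr-3, at 80.01 and 90.6 fpm in rde-11 and 132 and 135 fpm in N2, changed by -0.65 (SE 0.14, limma adjusted p = 0.0118). Both rde-11 libraries were below both N2 libraries for each of these. nhr-101 had 13.8 and 12.9 fpm in rde-11, against 25.3 and 21.2 fpm in N2 (log2 change -0.76, SE 0.20, limma adjusted p = 0.0299). nhr-101 lost its call in 6 of 13 alternatives, nhr-3 in 3 and nhr-146 in 1. The exons of nhr-101 overlap the DNA repair gene pms-2, which averaged 53.03 fpm in treated rde-11 and 46.5 fpm in treated N2.

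Of the 6 genes that rose in rde-11, nhr-66 and nhr-86 were the ones on the lists of receptors with known roles. nhr-66, whose protein partners with NHR-49 in lipid metabolism, had 143 and 151 fpm in treated rde-11 and 88.6 and 83.8 fpm in treated N2 (log2 change 0.76, SE 0.14, limma adjusted p = 0.00372). nhr-86, an intestinal receptor known for sensing a bacterial metabolite in innate immunity, had 113 and 141 fpm in rde-11 and 67.04 and 79.7 fpm in N2 (log2 change 0.78, SE 0.16, limma adjusted p = 0.00883). For both genes the rde-11 libraries lay above the N2 libraries without overlap. The exons of nhr-86 overlap comt-3 on the opposite strand, which averaged 93.0 fpm in treated rde-11 and 271 fpm in treated N2. nhr-17 on X had 19.1 and 14.1 fpm in rde-11 and 8.15 and 6.68 fpm in N2 (log2 change 1.05, limma adjusted p = 0.0124), and nhr-46 had 11.4 and 17.1 fpm in rde-11 and 7.34 and 7.64 fpm in N2 (log2 change 0.82, limma adjusted p = 0.0459). nhr-46 lost its call in 7 of 13 alternatives, nhr-17 in 4, nhr-86 in 3 and nhr-66 in 1. nhr-20 and nhr-4, named after their values were seen, rose at means under 5 fpm.

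By list, nhr-66 was the 1 of 7 tested lipid, sterol and nutrient receptors to rise in rde-11 (median log2 change 0.18), and nhr-86 the 1 of 3 stress and xenobiotic receptors (median 0.33). None of 9 conserved receptors was called (median -0.22), nor was any of 5 receptors of development and molting (median 0.25). Of 4 coregulators, gei-8 and mdt-15 rose (median 0.44), but gei-8 lost its call in 6 of 13 alternatives and mdt-15 in 7 of 13. mdt-15, whose protein coactivates NHR-49, had 37.2 and 47.1 fpm in treated rde-11 and 25.1 and 28.2 fpm in treated N2 (log2 change 0.64, limma adjusted p = 0.0446). acdh-1 fell, with 10.2 and 14.1 fpm in rde-11 and 47.1 and 33.4 fpm in N2 (log2 change -1.64, limma adjusted p = 0.00054).

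The calls in rde-11 depended on the scaling and the tool. With the median gene of at least 50 fpm set to no change, which shifts values by 0.23 on the log2 scale, 3 receptor genes rose and 15 fell, where 1.93% of all genes rose and 7.91% fell. edgeR on recovered reads, which differs in model, filter and scaling, called 5 higher and 12 lower, where it called 4.4% of all genes higher and 7.97% lower. With all 3 strains in 1 fit, nhr-64 was the 1 receptor gene still called, where 3.14% of all genes were, and without rde-11 replicate 2 there were 5, where 4.95% of all genes were called.

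**Figure D3:**
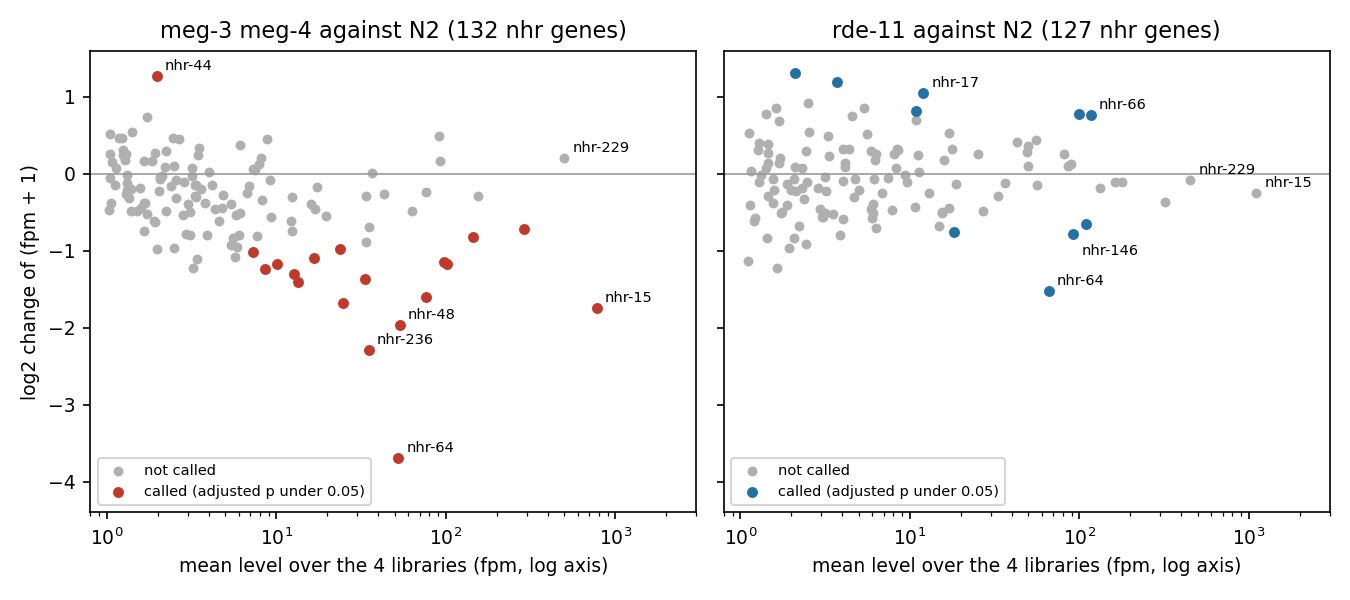
Log2 change of (fpm + 1) in treated RNA (vertical axis) against mean level over the 4 libraries (fpm, log axis) for the tested nhr genes, with meg-3 meg-4 against N2 on the left (132 genes) and rde-11 against N2 on the right (127 genes). Coloured points passed the test: 18 of 19 lie below 0 on the left, and 4 of 10 lie below 0 on the right, where nhr-64 is the lowest at -1.52.

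The mutants were also compared with each other in treated RNA. Of 131 receptor genes tested, 22 were lower in meg-3 meg-4 relative to rde-11 and 2 were higher, where 8.39% of all 16216 genes tested were lower and 3.61% higher, together 12%. The median log2 change was -0.34 over these receptor genes and -0.28 over all genes tested. Over protein-coding genes it was -0.35, and 11.3% of them were lower and 4.34% higher. nhr-64 at 6.76 and 6.63 fpm in meg-3 meg-4, against 32.6 and 34.4 fpm in rde-11 changed by -2.17 (SE 0.23, limma adjusted p = 0.000792). nhr-236 changed by -2.15, nhr-48 by -2.10, nhr-28 by -1.56, nhr-15 by -1.50 and nhr-40 by -1.47 on the log2 scale. nhr-17 had 3.80 and 3.60 fpm in meg-3 meg-4, against 19.1 and 14.1 fpm in rde-11 (log2 change -1.89, SE 0.25, limma adjusted p = 0.0025), with N2 between them at 8.15 and 6.68 fpm. nhr-145 had 4.23 and 3.03 fpm in meg-3 meg-4, against 14.5 and 12.5 fpm in rde-11 (log2 change -1.66, SE 0.26, limma adjusted p = 0.00498). nhr-95, nhr-190, nhr-65 and nhr-94 changed by between -1.36 and -1.17. nhr-94 lost its call in 8 of 13 alternatives, nhr-190 and nhr-65 in 5 each and nhr-95 in 1.

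Among receptors with known roles, nhr-48 and nhr-49 were lower in meg-3 meg-4 relative to rde-11. nhr-49 had 22.8 and 31.3 fpm in meg-3 meg-4, against 59.0 and 54.0 fpm in rde-11 (log2 change -1.05, SE 0.25, limma adjusted p = 0.031). nhr-49 lost its call in 6 of 13 alternatives and nhr-48 in 0 of 13. nhr-22 was higher, with 10.4 and 10.2 fpm in meg-3 meg-4, against 4.13 and 5.03 fpm in rde-11 (log2 change 1.02, limma adjusted p = 0.0316), as was nhr-226 at a mean under 5 fpm, named after its values were seen. The 2 tested target genes moved apart: acs-2 was lower in meg-3 meg-4 (log2 change -1.37, limma adjusted p = 0.00356) and acdh-1 higher (log2 change 2.06, limma adjusted p = 0.0022). The 4 coregulators showed no call. With the median gene set to no change, a shift of -0.35, 8 receptor genes were higher and 9 lower, where 6.95% of all genes were higher and 4.45% lower. With microRNAs set to no change 1 receptor gene was higher and 57 were lower, where 2.36% of all genes were higher and 35.4% lower. Without rde-11 replicate 1 there were 6 calls (with 5.12% of all genes called) and without replicate 2 there were 12 (with 6.21% of all genes called), against 43 without meg-3 meg-4 replicate 2 (with 36% of all genes called).

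Small RNAs of receptor genes depended on the polyphosphatase step. In N2 the summed level was 4311 and 4197 fpm in treated RNA and 93.6 and 82.0 fpm in untreated RNA, a ratio of 48.5. As a percentage, the treated sum was 4846% of the untreated one, and that of all protein-coding genes was 1651%. The family's value depended on single genes, at 3655% without nhr-15 and 10062% without nhr-15 and nhr-229. Of 103 receptor genes tested in N2, 101 were higher in treated RNA and 0 lower, where 57% of all 16869 genes tested were higher and 92.3% were called in either direction, and 87.9% of protein-coding genes were higher. The median log2 change was 2.85 over these receptor genes, 3.33 over protein-coding genes and 1.86 over all genes tested. The last set includes loci of microRNAs and piRNAs. At 5 fpm or more the order was reversed, with a median of 4.81 over 38 receptor genes and 4.01 over protein-coding genes. Receptor genes of 1 to 5 fpm, whose change log2(fpm + 1) understates, had a median of 2.03. nhr-15 had 1250.2 and 1144 fpm in treated RNA and 3.94 and 4.34 fpm in untreated RNA (log2 change 7.86, SE 0.17, limma adjusted p = 9.21e-06). nhr-204 changed by 7.35, nhr-249 by 7.15, nhr-58 by 7.12 and nhr-228 by 6.88 on the same scale. Set against the median gene of at least 50 fpm, which itself changed by 4.86, 13 receptor genes were higher in treated RNA and 78 lower, where 6.65% of all genes tested were higher and 81% lower under the same centring. Of the 103, 65 averaged 1 to 5 fpm, too low for log2(fpm + 1) to reach a change of 4.86. Their negative sign under this centring was set by the scale and does not show how far they depended on the treatment. In untreated RNA of the 3 strains, 137 of the 277 receptor genes had no read.

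nhr-229 stood apart in untreated RNA, and piRNA loci overlap its exons. It had 47.4 and 33.9 fpm in untreated meg-3 meg-4, with 58.7 and 60.8 fpm in untreated rde-11, and 66.8 and 48.9 fpm in untreated N2, and it held 62.3% of the family's untreated small RNAs in meg-3 meg-4, 63.8% in rde-11 and 65.5% in N2. The piRNA locus 21ur-7807 lies opposite its exons, and piRNAs carry the 5′ monophosphate that untreated libraries take up. 21ur-7807 had 43.8 and 31.5 fpm in untreated meg-3 meg-4, with 56.1 and 59.2 fpm in untreated rde-11, and 64.9 and 44.3 fpm in untreated N2. Its values therefore came to between 90.7% and 97.5% of those of nhr-229 in the 6 untreated libraries, and to between 14.9% and 17.3% in the 6 treated ones. With the 21ur-7807 values taken off, nhr-229 was left with 3.03 ± 0.78 fpm in untreated meg-3 meg-4, 2.06 ± 0.73 in untreated rde-11 and 3.27 ± 1.83 in untreated N2 (mean ± SD, n = 2), and with 449 ± 44.5 fpm in treated meg-3 meg-4, 364 ± 12.1 in treated rde-11 and 389 ± 17.9 in treated N2. A further piRNA locus, 21ur-13680, was listed with nearly the same values as 21ur-7807.

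**Figure D4:**
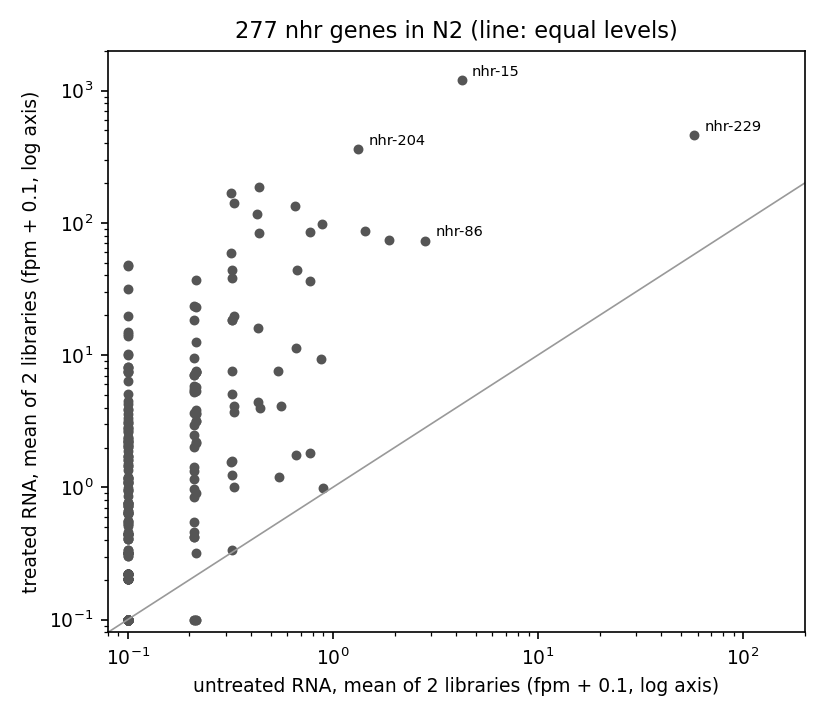
Mean small RNA level of the 277 nhr genes in N2 in treated RNA (vertical log axis) against untreated RNA (horizontal log axis), both in fpm with 0.1 added, each point a gene and the mean of 2 libraries; the line marks equal levels. Nearly all genes with reads lie above the line, nhr-15 with a mean of 1197 fpm in treated and 4.14 fpm in untreated RNA, and nhr-229 lies far to the right at 57.9 fpm in untreated RNA.

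In untreated RNA the mutants gave no call. In each mutant against N2, 6 receptor genes were tested and 0 were called by limma, with 2 of 6 at an unadjusted p under 0.05 in each comparison and 0 called by edgeR. At that unadjusted threshold stood 9.85% of all genes tested in meg-3 meg-4, while in rde-11 it was 11.1%. Of all genes tested, limma called 0.238% and edgeR 0.266% in meg-3 meg-4, while in rde-11 limma called 0.593% and edgeR 0.416%. nhr-15 had 1.19 and 1.04 fpm in untreated meg-3 meg-4, against 3.94 and 4.34 fpm in untreated N2, without overlap, and its log2 change of -1.28 did not pass (SE 0.39, limma adjusted p = 0.176). In untreated rde-11 nhr-15 had 2.58 and 4.38 fpm, overlapping N2. On the scale of log2(fpm + 1), the change of nhr-15 in meg-3 meg-4 against N2 was lower by 0.47 in treated than in untreated RNA, with an SE of 0.27 (limma interaction, adjusted p = 0.565), and none of the 12 such differences tested passed. The sign of the nhr-15 difference depended on the scale, which understates changes of low genes. The authors' deposited log2 changes of nhr-15 were -1.55 in treated and -1.67 in untreated RNA.

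Some genes, picked after their values were seen, differed between the meg-3 meg-4 replicates. nhr-86 had 74.6 fpm in treated meg-3 meg-4 replicate 1 and 141 fpm in replicate 2, against 67.04 and 79.7 fpm in N2. In untreated RNA nhr-86 had 0.597 and 6.62 fpm in the same meg-3 meg-4 replicates, against 1.53 and 3.88 fpm in N2. mdt-15 showed 20.5 and 50.01 fpm in treated meg-3 meg-4, against 25.1 and 28.2 fpm in treated N2. For both genes the groups overlapped and no change from N2 passed. Others differed the opposite way, such as nhr-101, with 18.8 fpm in treated meg-3 meg-4 replicate 1 and 12.7 fpm in replicate 2.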

How the data were processed

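Per the file headers, the authors deposited fpm values per library (the CPM unit, reads scaled to the total assigned to genes, with no correction for gene length), plus, for each gene, the log2 fold change of the authors' own comparison with its adjusted p-value. Per the submitters' processing notes, the tools were cutadapt, Bowtie2, HTSeq and DESeq2 and the build was ce10. Strand and multi-mapping settings are not given in these sources. The table's 42048 genes include 277 whose listed name starts with nhr-. The members and lists were chosen with earlier results of these data known. Names, classes and overlaps came from the annotation of WBcel235, another build, so no coordinates are given.

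Each comparison of 2 against 2 libraries used limma 3.58.1 (trend option, R 4.3.3) on log2(fpm + 1), a scale that understates changes of low genes, over every gene that averaged 1 fpm or more, with Benjamini-Hochberg adjustment and calls at adjusted p under 0.05. No sample was dropped. All nonzero fpm values (100%) came out as whole reads at a tolerance of 0.01, so edgeR 4.0.16 (quasi-likelihood, TMM, calling 909 genes lower and 315 higher in treated meg-3 meg-4 against N2, and 1107 lower and 611 higher in treated rde-11 against N2) and DESeq2 1.42.0 were run on recovered reads as alternatives. Floors of 3 reads cover counting error only, since reads carry no molecular identifiers. The scripts were tested on simulated data. Named genes were the called members of at least 5 fpm, up to 12 in each direction by size of change, the 10 most abundant members in treated N2, and called list members with at most 4 uncalled ones per list. Other alternatives were a pseudocount of 0.5, no filter or 5 fpm, centring on the median gene or on microRNAs of at least 50 fpm, a replicate block, all 3 strains in 1 fit and leaving out each library. The 8 columns of the authors' averages were not used.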

Additional observations from a re-analysis of the deposited data

How the results depend on the processing

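The summed level of receptor genes in treated meg-3 meg-4, 59.2% of that in N2, was 70.8% without nhr-15, 52.4% without nhr-229 and 50.1% with microRNAs centred, and 58.2% to 60.2% leaving out 1 library. In treated rde-11, 91.9% of N2, it was 78.5% with the median gene centred, 97.5% with microRNAs centred, and 89.6% to 94.1% leaving out 1 library. These alternatives were chosen after seeing the data. Counts of called receptor genes moved as follows, and the cause was not tested. In treated meg-3 meg-4 against N2 the 19 calls became 9 with DESeq2, 32 with a replicate block and 6 to 30 leaving out 1 library. In treated rde-11 against N2 the 10 calls became 3 without a filter, 18 with the median gene centred, 17 with edgeR, 5 with DESeq2, 28 with a replicate block, 1 with all 3 strains in 1 fit and 5 to 14 leaving out 1 library. In meg-3 meg-4 against rde-11 the 24 calls became 10 without a filter, 58 with microRNAs centred, 13 with edgeR, 9 with DESeq2, 52 with a replicate block and 6 to 43 leaving out 1 library. In untreated meg-3 meg-4 the 0 calls became 1 with microRNAs centred (1.72% of all genes called) and 1 with a replicate block (0.66%). Untreated rde-11 stayed at 0 under each alternative run. In N2, treated against untreated RNA had 101 calls. They became 38 at 5 fpm or more, where 38 receptor genes were tested and 97.9% of all genes were called. With a replicate block they became 103, where 95% of all genes were called. Same-numbered replicates deviated together (correlations of 0.229 to 0.501 over genes), but with 2 pairs a comparison and no label naming a shared batch they were not treated as paired. Counts with 1 library left in a group, given further above, assume that it varies like the other group.

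For single genes, 247 of 297 alternative values in treated meg-3 meg-4 against N2 kept direction and call and 50 lost the call, 177 of 221 in treated rde-11 kept both, 38 lost the call and 6 gained one, and 174 of 208 between the mutants kept both and 34 lost the call. With the median gene centred, treated against untreated changes in N2 turned negative for nhr-23 (-0.11), nhr-8 (-0.39), nhr-86 (-0.46), nhr-6 (-1.72), nhr-10 (-2.25), nhr-2 (-2.43), nhr-57 (-2.62), nhr-41 (-2.83), nhr-114 (-2.86), nhr-13 (-2.87), nhr-239 (-2.95), nhr-60 (-2.97), nhr-80 (-3.01) and nhr-91 (-3.14), and for din-1 (-1.40), mdt-15 (-1.55), acdh-1 (-2.46), daf-36 (-2.60), daf-12 (-2.98) and gei-8 (-3.16). For low genes among these the negative sign was set by the scale, since log2(fpm + 1) keeps their change under the 4.86 taken off. Depth limits low genes most: 147 receptor genes averaged under 1 fpm in treated N2, near the floor of 0.568 to 0.772 fpm, and a fall in a mutant is hardly detectable there.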
